A study of Arabidopsis thaliana with 6 samples.

Results

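The genes described here encode membrane transporters, and they were chosen by name. They are the genes whose symbol, with or without a leading AT, is one of 33 transporter family names followed by a number, taken from the probe sets that the array annotation assigns to exactly 1 gene. The families cover ABC transporters, aquaporins, nitrate, ammonium, phosphate and sulphate transporters, potassium and calcium channels and exchangers, proton and calcium pumps, zinc transporters, sugar and amino acid carriers and MATE-type efflux carriers. Of 13350 genes with such a probe set, 10 had a name of this form, each with 1 probe set. They came from 3 of the 33 families: 7 CHX genes, 2 ZIP genes and 1 NRT gene. The current gene list of the assembly TAIR10.1, used for names only, holds 335 symbols of this form, so the 10 genes are a thin sample of the families and say nothing of the rest. The rule uses measured values only to pick 1 probe set per gene, by the highest mean, and each gene here had just 1.

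CHX proteins are cation/proton exchangers of the plasma membrane and the endomembranes, known for their part in the potassium and pH balance of plant cells. ZIP proteins carry zinc, and in some cases iron or manganese, into the cytosol. NRT2 proteins are high-affinity nitrate transporters, which plants use when nitrate is scarce.

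Transcripts were measured on 6 one-colour Affymetrix Arabidopsis arrays, in 3 groups of 2 biological replicates. The groups were Arabidopsis thaliana seedlings overexpressing the rice cDNA OsTOP6A3, seedlings overexpressing the rice cDNA OsTOP6B, and wild-type seedlings. These cDNAs encode an A subunit and the B subunit of topoisomerase 6, an enzyme that cuts both strands of DNA, moves another duplex through the gap and seals it. All seedlings were 10 days old and were grown in continuous light on 0.8% agar with MS medium and 2% sucrose, a medium rich in nitrate. The labels give Columbia as the ecotype of all arrays but wild-type replicate 1, which has no ecotype. They give a single line name for each overexpressor and no empty-vector line, so the transgene and the line that carries it cannot be told apart. The promoter of the transgenes is not given in the sources used here. RNA came from whole seedlings, in which fewer cells of a type and less RNA per cell cannot be told apart.

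The median deposited intensity was 95.2 and 90.7 on the OsTOP6A3 arrays, 103.5 and 66.2 on the OsTOP6B arrays and 69.7 and 71.7 on the wild-type arrays. OsTOP6B replicate 1 correlated over probe sets at 0.990 with each OsTOP6A3 array and at 0.985 with OsTOP6B replicate 2. OsTOP6B replicate 2 correlated at 0.984 with each OsTOP6A3 array. With wild-type replicates 1 and 2, OsTOP6B replicate 1 correlated at 0.969 and 0.969, and OsTOP6B replicate 2 at 0.967 and 0.966. Intensities below are either as deposited or log2(intensity + 16) after quantile normalization, a scale on which an intensity of 0 reads 4 and the changes of dim genes are understated. Probe sets whose mean level fell under the 25th percentile, which lies at 4.97 on this scale, were not tested. A gene was called where its limma p was under 0.05 after Benjamini-Hochberg adjustment across 17059 tested probe sets. Of 31 marker genes of seedling cell types, 10 had a probe set that names them: 7 of 9 for leaf and shoot, 2 of 7 for root hairs, 1 of 7 for other root cells, 0 of 5 for guard cells and 0 of 3 for phloem companion cells. The summed normalized intensity of the leaf and shoot markers was 33709 to 34065 with OsTOP6A3, 31128 to 34855 with OsTOP6B and 36616 to 36879 in wild type. Its members differed in direction: LHCB4.2 was called higher (log2 change 0.72 for OsTOP6A3 and 0.79 for OsTOP6B) and PSAN lower (-0.71 and -0.83), and the other 5 were not called in either line. The summed intensity of the root hair markers was 243 to 277 with OsTOP6A3, 369 to 438 with OsTOP6B and 155 to 157 in wild type.

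The comparisons with wild type ask which transcripts differ in seedlings that overexpress each subunit. Of the 10 genes, 6 passed the filter on low values: CHX16, CHX19, CHX20, NRT2.5, ZIP6 and ZIP9. With OsTOP6B 1 of these 6 was called, CHX20, which fell, whereas 14.9% of all tested probe sets were called in either direction, 7.91% higher and 6.98% lower. With OsTOP6A3 limma called 0 of the 6, against 9.68% of all tested probe sets (5.52% higher and 4.17% lower). An unadjusted p under 0.05 was seen in 2 of the 6, CHX20 and NRT2.5, against 25.9% of all. NRT2.5 passed the filter only through its wild-type level, so its p supports nothing. With so few genes these counts do not set the transporter genes apart from the array as a whole. The median log2 change of the 6 genes was -0.27 with OsTOP6A3 and -0.24 with OsTOP6B, beside -0.02 and -0.02 for all tested probe sets. These medians take in NRT2.5, whose fall goes with its way through the filter, so they are a description only. Both comparisons share the wild-type arrays.

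CHX20 (AT3G53720) encodes a cation/proton exchanger of endomembranes, known from guard cells, where it takes part in osmoregulation and stomatal opening in the light. Its deposited intensity was 143.7 and 143.2 with OsTOP6A3, 118.0 and 77.3 with OsTOP6B and 156.8 and 148.0 in wild type. After normalization its log2 level was 7.12 and 7.17 with OsTOP6A3, 6.78 and 6.80 with OsTOP6B and 7.65 and 7.54 in wild type. All arrays of both lines lay below both wild-type arrays, the OsTOP6B arrays lowest, and no groups overlapped. Such a separation below wild type was also seen in 32.4% of tested probe sets with OsTOP6A3 and in 30.1% with OsTOP6B. The log2 change with OsTOP6B was -0.81 ± 0.12 (SE, n = 2 arrays a group), or 1.75-fold lower, with a limma adjusted p of 0.00545. With OsTOP6A3 it was -0.46 ± 0.12, or 1.37-fold lower, and did not pass (limma adjusted p = 0.0554).

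After normalization the replicates of CHX20 lay close together, whereas as deposited those of OsTOP6B read 118.0 and 77.3. The SD between replicates, pooled over the groups, was 0.05 on the log2 scale, against a median of 0.15 over the tested probe sets, and only 5.1% of these had a smaller one. With OsTOP6B the CHX20 call was kept when any single array was left out, with changes from -0.87 to -0.76. With OsTOP6A3 the adjusted p was 0.0498 without OsTOP6B replicate 1, which lies in neither group of that comparison, and the change was then -0.45.

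The size of the CHX20 change rests on the scaling between arrays. On the deposited scale its log2 change was -0.59 with OsTOP6B (limma adjusted p = 0.196) and -0.08 with OsTOP6A3 (adjusted p = 0.866). On that scale the median change of all tested probe sets was 0.18 with OsTOP6B and 0.34 with OsTOP6A3, and CHX20 lay -0.77 and -0.41 from it. With the arrays scaled to a common median, the changes were -0.80 with OsTOP6B (adjusted p = 0.0054) and -0.44 with OsTOP6A3 (adjusted p = 0.0792). No guard cell marker of the list had a probe set that names it, so the part of guard cell number in the change was not tested.

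**Figure D1:**
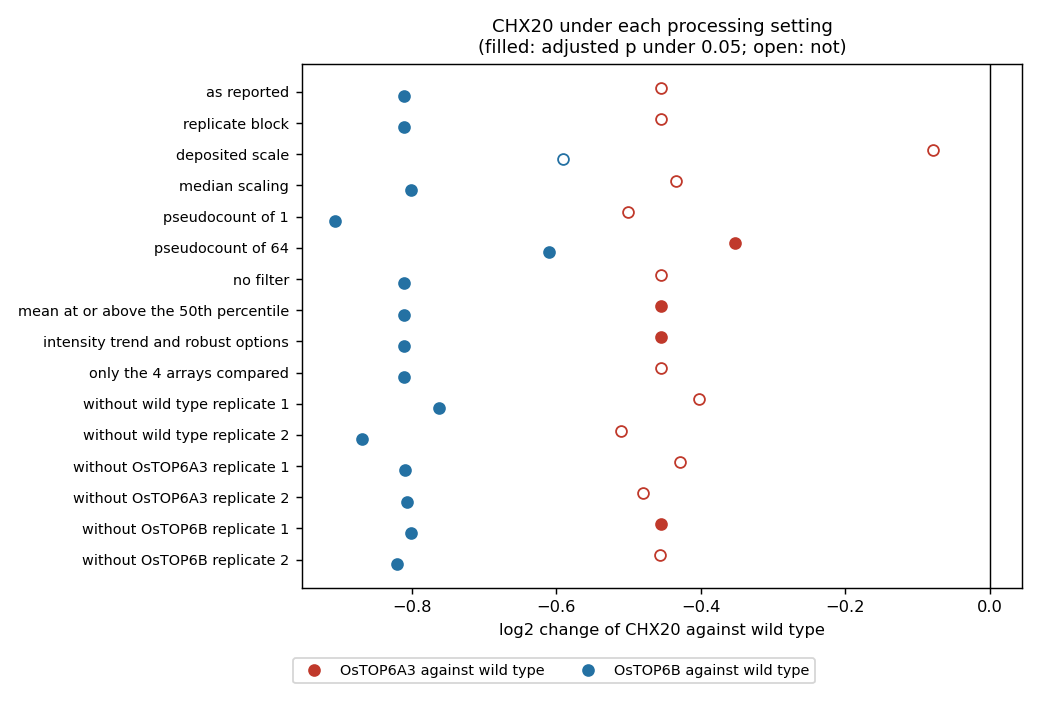
Log2 change of CHX20 against wild type (x axis) under the reported setting and each alternative (y axis), for OsTOP6A3 in red and OsTOP6B in blue. Filled points have a limma adjusted p under 0.05. All points lie below 0, and the deposited scale gives the value nearest to 0 for each line, -0.08 with OsTOP6A3 and -0.59 with OsTOP6B.

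CHX16 (AT1G64170) and CHX19 (AT3G17630) belong to the same branch of the family, whose members have been linked to potassium and pH balance inside the cell. CHX16 had deposited intensities of 213.2 and 213.6 with OsTOP6A3, 226.7 and 116.9 with OsTOP6B and 128.3 and 137.7 in wild type. Its normalized log2 level was 7.64 and 7.69 with OsTOP6A3, 7.63 and 7.31 with OsTOP6B and 7.39 and 7.45 in wild type. Both OsTOP6A3 arrays lay above wild type, as in 28.6% of tested probe sets, and the OsTOP6B arrays lay on either side of it. The log2 changes of CHX16 were 0.24 ± 0.14 with OsTOP6A3 (limma adjusted p = 0.340) and 0.04 ± 0.14 with OsTOP6B (adjusted p = 0.873), and neither passed.

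CHX19 had deposited intensities of 17.6 and 17.9 with OsTOP6A3, 27.2 and 10.6 with OsTOP6B and 30.9 and 17.1 in wild type. On the normalized log2 scale it read 4.98 and 5.02 with OsTOP6A3, 5.24 and 4.82 with OsTOP6B and 5.70 and 5.18 in wild type. The OsTOP6A3 arrays lay below both wild-type arrays, as in 32.4% of tested probe sets, and the OsTOP6B arrays overlapped with wild type. As deposited, however, both OsTOP6A3 arrays read above wild-type replicate 2. The changes were -0.44 ± 0.21 with OsTOP6A3 (limma adjusted p = 0.231) and -0.41 ± 0.21 with OsTOP6B (adjusted p = 0.226), and without wild-type replicate 1 they were -0.18 and -0.15. Its replicates were further apart than those of CHX20, with a pooled SD of 0.28, and 88.2% of tested probe sets had a smaller one. The tested CHX genes thus held 1 fall with OsTOP6B, in CHX20, and the values of the other two did not pass in either line.

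The remaining CHX genes, CHX6B, CHX15, CHX21 and chx28, lay under the filter. CHX21 (AT2G31910), whose product has been linked to sodium transport in roots, read 1.7 and 0.6 with OsTOP6A3, 0.7 and 0.8 with OsTOP6B and 0.7 and 1.0 in wild type as deposited. The deposited intensity of chx28 (AT3G52080) was 1.9 and 2.1 with OsTOP6A3, 1.7 and 1.2 with OsTOP6B and 1.9 and 1.1 in wild type. Values this close to 0 on all 6 arrays give no order of the groups for either gene.

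CHX15 (AT2G13620) had deposited intensities of 2.9 and 3.1 with OsTOP6A3, 15.2 and 4.2 with OsTOP6B and 5.0 and 1.3 in wild type. Its highest value stood on OsTOP6B replicate 1 alone, and the OsTOP6B arrays overlapped with wild type. CHX6B (AT1G08135), which lies beside its relative CHX6A in the genome, read 18.4 and 2.8 with OsTOP6A3, 16.1 and 1.4 with OsTOP6B and 10.9 and 1.6 in wild type. In CHX6B replicate 1 was above replicate 2 in all 3 groups, and the lowest replicate 1 array lay above the highest replicate 2 array. Of 5687 probe sets under the filter, 4.22% had this order of the replicate numbers. Nothing in the labels links arrays of the same number across groups. When the filter was lifted, the smallest limma adjusted p of these CHX genes against wild type was 0.314, for CHX15 with OsTOP6B.

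**Figure D2:**
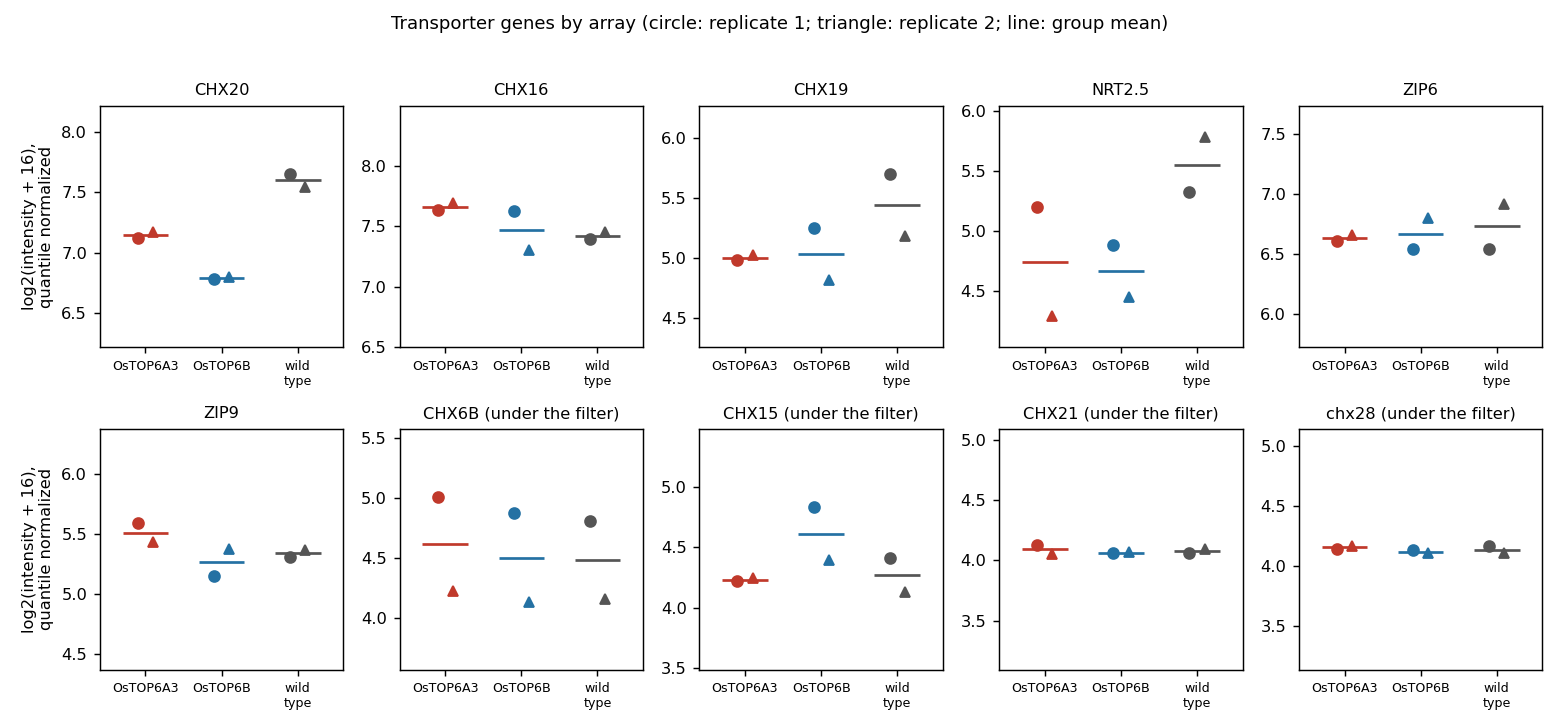
Log2(intensity + 16) after quantile normalization (y axis) of the 10 transporter genes on each array, by group (x axis). Circles are replicate 1, triangles replicate 2, lines the group means, and each y axis spans the same 2 log2 units. CHX20 separates the 3 groups, 6.78 and 6.80 with OsTOP6B lying lowest, whereas CHX21 and chx28 stay near the floor of 4 on all arrays.

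NRT2.5 (AT1G12940) encodes a high-affinity nitrate transporter that is known to be induced by long nitrogen starvation in roots and leaves. Its deposited intensity was 24.0 and 3.8 with OsTOP6A3, 16.4 and 4.9 with OsTOP6B and 21.0 and 33.5 in wild type. The normalized log2 level was 5.20 and 4.29 with OsTOP6A3, 4.88 and 4.45 with OsTOP6B and 5.32 and 5.78 in wild type. The arrays of both lines lay below wild type on this scale, OsTOP6A3 replicate 1 only just, and as deposited that array read above wild-type replicate 1. Arrays all below wild type were seen in 32.4% of tested probe sets with OsTOP6A3 and in 30.1% with OsTOP6B. The change was -0.81 ± 0.31 with OsTOP6A3 (limma adjusted p = 0.148) and -0.89 ± 0.31 with OsTOP6B (adjusted p = 0.0936), and neither passed.

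The replicates of NRT2.5 had a pooled SD of 0.45 on the log2 scale, and 98.6% of tested probe sets had a smaller one. Its mean of 4.99 lay just above the filter, which it passed through its wild-type level of 5.55, so its changes are given as a description and its p values support nothing. Over the alternatives in which it was tested, the adjusted p ran from 0.0437 to 0.316 with OsTOP6B and from 0.115 to 0.548 with OsTOP6A3. The OsTOP6A3 change was -0.35 without OsTOP6A3 replicate 2, the lowest array of all for this gene. The gene fell under the filter without either wild-type array, without OsTOP6A3 replicate 1, with a pseudocount of 1 and with the 50th percentile as the filter. The root hair markers EXPA7 and EXPA18, which encode expansins, had log2 changes of 1.23 and 0.15 with OsTOP6A3 and 1.73 and 0.81 with OsTOP6B. EXPA18 with OsTOP6A3 was not called (limma adjusted p = 0.601), and the others were. The part of root hair cells in the NRT2.5 values was not tested.

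ZIP6 (AT2G30080) and ZIP9 (AT4G33020) encode zinc transporters of the ZIP family, and ZIP9 is known to be induced under zinc deficiency. For ZIP6 the deposited intensity was 95.0 and 94.2 with OsTOP6A3, 97.4 and 77.5 with OsTOP6B and 66.1 and 91.1 in wild type. On the normalized log2 scale ZIP6 read 6.61 and 6.66 with OsTOP6A3, 6.54 and 6.80 with OsTOP6B and 6.54 and 6.92 in wild type, and all groups overlapped. Its log2 changes were -0.10 ± 0.16 with OsTOP6A3 and -0.06 ± 0.16 with OsTOP6B (limma adjusted p = 0.753 and 0.843). The 95% intervals ran from -0.48 to 0.29 and from -0.44 to 0.32.

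ZIP9 had deposited intensities of 37.5 and 29.5 with OsTOP6A3, 24.1 and 21.2 with OsTOP6B and 20.8 and 21.4 in wild type. Its normalized log2 level was 5.59 and 5.43 with OsTOP6A3, 5.15 and 5.38 with OsTOP6B and 5.31 and 5.37 in wild type. The OsTOP6A3 arrays were highest, and the OsTOP6B arrays overlapped with wild type. Both OsTOP6A3 arrays lay above wild type in 28.6% of tested probe sets. The changes were 0.17 ± 0.14 with OsTOP6A3 (limma adjusted p = 0.476; 95% interval -0.15 to 0.49) and -0.07 ± 0.14 with OsTOP6B (adjusted p = 0.755; 95% interval -0.39 to 0.25). A change of ZIP6 or ZIP9 larger than 1 on the log2 scale, or 2-fold, lies outside the interval in either line. So does any change below -0.48 or above 0.49. Changes inside the intervals could not be told from the spread between replicates.

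**Figure D3:**
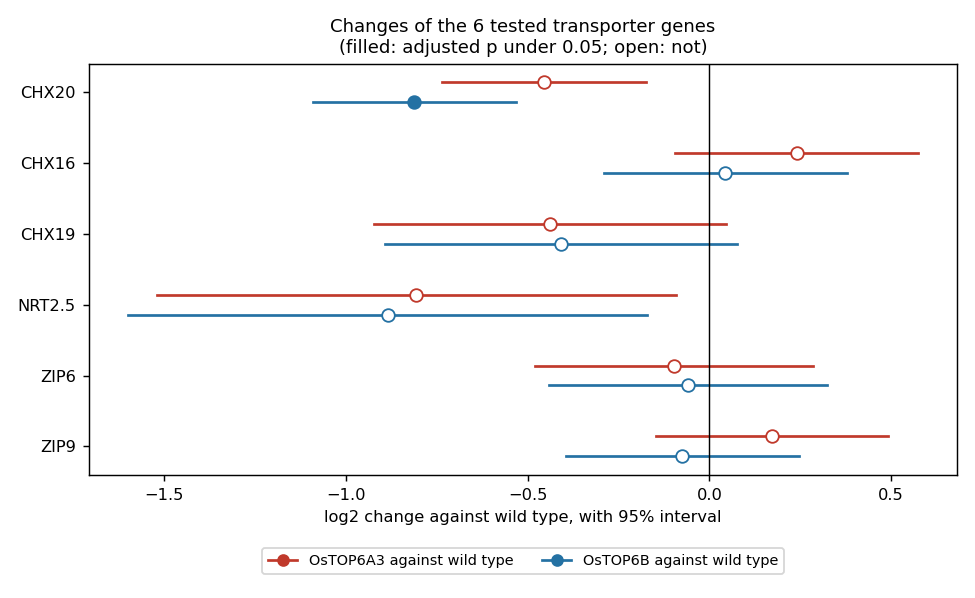
Log2 change against wild type (x axis) with its unadjusted 95% interval for the 6 tested transporter genes (y axis), OsTOP6A3 in red above OsTOP6B in blue. Filled points have a limma adjusted p under 0.05. CHX20 with OsTOP6B, at -0.81, is the sole filled point, and the intervals of NRT2.5 are the widest.

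The remaining comparison sets the OsTOP6A3 line against the OsTOP6B line. In limma 0 of the 6 tested transporter genes passed, as did 0% of all tested probe sets, and 1 of the 6 had an unadjusted p under 0.05, against 7.24% of all. That gene was CHX20, at 7.12 and 7.17 with OsTOP6A3 and 6.78 and 6.80 with OsTOP6B. Its difference was 0.36 ± 0.12 (limma adjusted p = 0.675), with an unadjusted 95% interval of 0.08 to 0.64. The next smallest unadjusted p values belonged to ZIP9, at 0.25 ± 0.14 with an interval of -0.07 to 0.57, and CHX16, at 0.20 ± 0.14 with an interval of -0.14 to 0.53. Of the 6 tested genes, 3 had both OsTOP6A3 arrays above both OsTOP6B arrays after normalization, an order found in 19.1% of tested probe sets. As deposited the arrays of CHX16 overlapped between the lines. For NRT2.5 the interval of -0.63 to 0.79 leaves room for a difference in either direction.

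Other transport genes were taken from a list of further family names, among them the SWEET sugar transporters, the GLR glutamate receptor-like channels, the TMT tonoplast sugar transporters, NRAMP and MTP. Of 27 such genes 19 were tested, and in each line 2 were called higher and 1 lower. That is 3 of 19 genes, beside 9.68% of all tested probe sets called with OsTOP6A3 and 14.9% with OsTOP6B, and the comparisons share their wild-type arrays. GLR2.7, a glutamate receptor-like channel gene, had deposited intensities of 158.6 and 130.6 with OsTOP6A3, 176.2 and 144.0 with OsTOP6B and 32.6 and 30.2 in wild type. Its rise was 1.44 ± 0.15 on the log2 scale with OsTOP6A3, and 1.72 ± 0.15 with OsTOP6B (limma adjusted p = 0.0014 and 0.000589). SWEET17, which encodes a fructose transporter of the vacuole membrane, rose by 1.34 ± 0.23 and 1.25 ± 0.23 (adjusted p = 0.0125 and 0.0126). GLR3.6, whose product takes part in wound signals between leaves, changed by -0.76 ± 0.14 and -0.88 ± 0.14 (adjusted p = 0.014 and 0.00638). Leaving out wild-type replicate 2 ended the SWEET17 calls (adjusted p = 0.0669 with OsTOP6A3 and 0.0687 with OsTOP6B), as did leaving out OsTOP6A3 replicate 1 (0.0665) or replicate 2 (0.0554) for OsTOP6A3. With OsTOP6A3 the adjusted p of GLR3.6 was 0.08 without wild-type replicate 2, and 0.0633 or 0.104 when the fit left out replicate 1 or 2 of that line. The deposited scale ended its call in both lines (adjusted p = 0.256 with OsTOP6A3 and 0.11 with OsTOP6B).

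**Figure D4:**
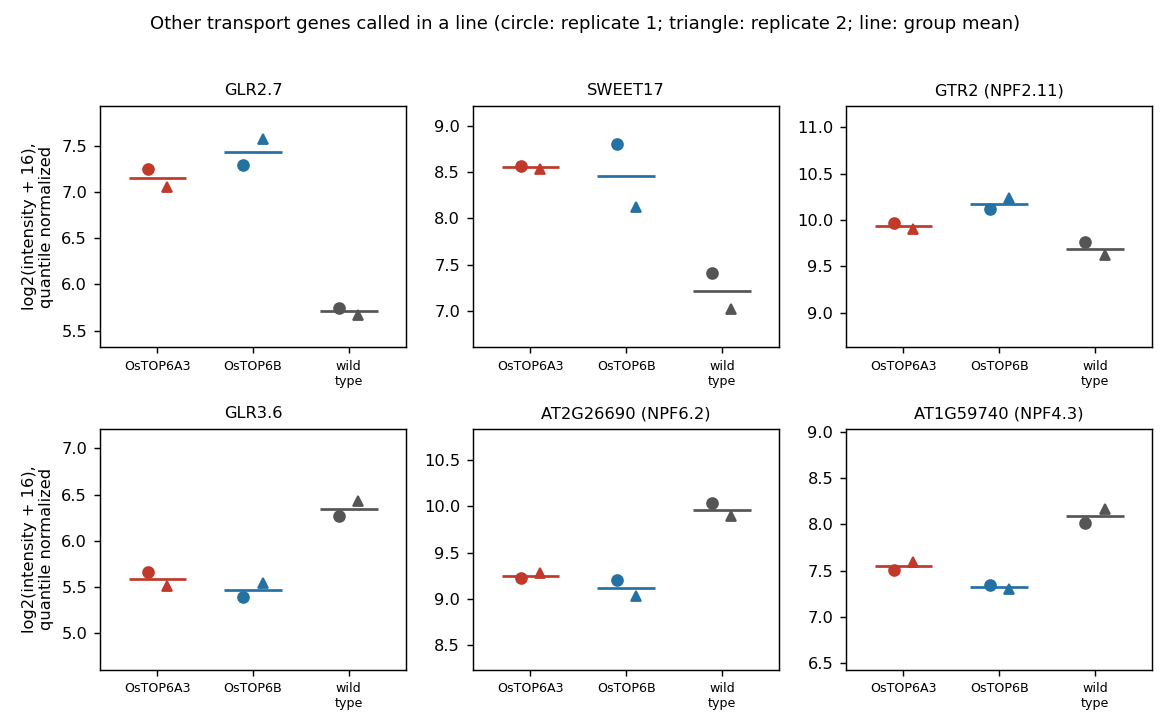
Log2(intensity + 16) after quantile normalization (y axis) on each array, by group (x axis), for transport genes outside the 10 that were called in at least 1 line. Circles are replicate 1, triangles replicate 2 and lines the group means, and each y axis spans the same range. GLR2.7 and SWEET17 lie higher in both lines than in wild type, GLR3.6, AT2G26690 (NPF6.2) and AT1G59740 (NPF4.3) lie lower, and GTR2 (NPF2.11) passed with OsTOP6B only.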

How the data were processed

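The authors deposited 1 linear intensity per probe set and array, from biotin-labelled RNA in 1 colour per the labels. How probes were summarised and arrays scaled is not given in the sources used here. Columns left without a sample numbered 0. Of 22810 probe sets, 64 controls were set aside. Exactly 1 gene was named for 13513 probe sets, several for 503 and none for 8730. The 10 transporter genes all matched a locus of TAIR10.1. Quartiles differed between arrays by up to 0.54 on the log2 scale, above a limit of 0.1, so log2(intensity + 16) was quantile normalized. All 6 arrays were fitted together with limma 3.58.1 in R 4.3.3 (3 group means, two-sided, 3 residual and 4.61 prior degrees of freedom), without the replicate number. SE values are limma's moderated ones. The number of arrays limits the precision. The fit was tested on simulated data.

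Text named the called genes, the highest gene of each family and the 3 smallest p values between lines, and here all 10 are given. Members and lists were chosen with earlier results of these data known. FRO1 was dropped from the other transport genes because its locus encodes a respiratory complex subunit. Alternatives were a replicate block, 2 other scalings, pseudocounts of 1 and 64, no filter, the 50th percentile, limma's trend and robust options, only the groups compared, and each array left out. No sequence was used here.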

Additional observations from a re-analysis of the deposited data

Results flagged for a closer look

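CHX15 stood out because both OsTOP6A3 arrays lay below the wild-type mean and both OsTOP6B arrays above it, with a mean log2 difference between the lines of -0.38. It lay under the filter. In the limma fit without a filter the difference did not pass (adjusted p = 0.771). In chx28 the lines were placed the other way round, both OsTOP6A3 arrays above and both OsTOP6B arrays below the wild-type mean, with a difference of 0.037. All its values lie so near the floor that they give no order of the groups, and without a filter the difference did not pass (adjusted p = 0.967).

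NRAMP5, a gene of the NRAMP metal transporter family outside the 10 genes, showed the widest split of this kind, with the OsTOP6A3 mean 0.90 above the OsTOP6B mean. Its deposited intensity was 17.8 and 18.6 with OsTOP6A3, 0.9 and 1.8 with OsTOP6B and 14.2 and 11.9 in wild type. It was chosen after its values were seen and lay under the filter, so its p values support nothing. Without a filter its change with OsTOP6B was -0.83 ± 0.12 (limma adjusted p = 0.0159), that with OsTOP6A3 was 0.07 ± 0.12 (0.810), and the difference of the lines did not pass (0.756).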

How the results depend on the processing

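The count of transporter genes called was 1 for OsTOP6B and 0 for OsTOP6A3. For OsTOP6A3 it became 1, in each case CHX20 lower, with a pseudocount of 64, the 50th percentile filter or limma's trend and robust options, and 0 to 1 when an array was left out. For OsTOP6B it became 0 on the deposited scale, 2 with only the arrays compared (NRT2.5 lower being the second), and 1 to 2 when an array was left out. NRT2.5 passed the filter only through its wild-type level, so its calls support nothing. Between the lines the count stayed at 0 throughout. Each gene has 1 probe set and a transporter locus, so averaging probe sets or dropping other loci changed nothing. With the replicate block the counts were 0 for OsTOP6A3 and 1 for OsTOP6B. Nothing in the labels pairs arrays by number. Over the tested probe sets after normalization, replicate differences of 2 groups correlated at 0.02, 0.00 and -0.05. A shared effect on few genes would not show in these values.

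Over all probe sets 1652 were called for OsTOP6A3 and 2540 for OsTOP6B. With the block these were 1452 and 2161. For OsTOP6A3 the count was 1100 with a pseudocount of 1, 1002 with no filter and 560 to 2017 with an array left out (708 and 870 without wild-type replicates 1 and 2, 560 and 689 without OsTOP6A3 replicates 1 and 2). For OsTOP6B it was 1460 on the deposited scale, 1608 with no filter and 1054 to 2210 with an array left out (1054 and 1251 without wild-type replicates 1 and 2). Between the lines it was 5 on the deposited scale and 1 with a pseudocount of 64 or with the trend and robust options. Calls higher than wild type made up 57.0% for OsTOP6A3 and 53.1% for OsTOP6B, against 92.1% and 84.5% on the deposited scale.

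Changes that never passed turned sign in ZIP6, ZIP9 and CHX16. On the deposited scale ZIP6 was 0.24 with OsTOP6A3 and 0.14 with OsTOP6B, and ZIP9 was 0.058 with OsTOP6B. The median change of all tested probe sets on that scale was 0.34 with OsTOP6A3 and 0.18 with OsTOP6B. From these medians ZIP6 lay -0.098 and -0.049, and ZIP9 lay -0.13 with OsTOP6B. With an array left out, ZIP6 ran from -0.29 to 0.088 with OsTOP6A3 and from -0.25 to 0.13 with OsTOP6B, ZIP9 from -0.20 to 0.038 with OsTOP6B, and CHX16 from -0.12 to 0.20 with OsTOP6B. The cause was not tested.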

Other observations

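Current synonyms of the assembly name 12 further genes as nitrate and peptide transporters of the NPF family or as a DTX efflux carrier, although the annotation gives them another symbol. They were gathered after the data were seen, and 8 were tested. With OsTOP6A3 0 were called higher and 2 lower, and with OsTOP6B 1 was called higher and 2 lower. Over all tested probe sets 9.68% were called with OsTOP6A3 and 14.9% with OsTOP6B, and since the list was gathered late its counts are a description. AT2G26690 (NPF6.2) had deposited intensities of 675.7 and 681.4 with OsTOP6A3, 692.2 and 437.8 with OsTOP6B and 868.0 and 825.5 in wild type. Its log2 change was -0.71 ± 0.13 with OsTOP6A3 and -0.85 ± 0.13 with OsTOP6B (limma adjusted p = 0.015 and 0.00613). AT1G59740 (NPF4.3) changed by -0.54 ± 0.12 and -0.77 ± 0.12 (adjusted p = 0.0353 and 0.00746). On the deposited scale both genes lost their calls, with adjusted p of 0.449 and 0.183 for AT2G26690 and 0.719 and 0.256 for AT1G59740. With OsTOP6A3 the AT1G59740 call was also lost without any one of the arrays compared (adjusted p = 0.099 to 0.222) and with the replicate block (0.055). With OsTOP6A3 that of AT2G26690 was lost without wild-type replicate 1 (0.0977), OsTOP6A3 replicate 1 (0.116) or OsTOP6A3 replicate 2 (0.0779).

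GTR2 (NPF2.11), which encodes a glucosinolate transporter, had deposited intensities of 1143.5 and 1062.0 with OsTOP6A3, 1298.0 and 1031.2 with OsTOP6B and 721.7 and 683.3 in wild type. It rose by 0.48 ± 0.13 with OsTOP6B (adjusted p = 0.0422), a call lost in 12 of 15 alternatives, each single array left out and the replicate block (0.0648) among them, with adjusted p over all of them from 0.00947 to 0.181. With OsTOP6A3 it had 0.24 ± 0.13 (adjusted p = 0.274). Its relative GTR1 (NPF2.10) had 0.14 and 0.10 and did not pass.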
